A study of Homo sapiens with 26 samples.

Results

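The genes described are 10 factors of translation elongation and termination: EEF1A1, EEF1A2, EEF1B2, EEF1D, EEF1G, EEF2, EEF2K, ETF1, GSPT1 and ABCE1. They were chosen by symbol, and all 10 were found among the 19478 coding sequences counted in each of 4 tables. Ribosome footprints, the mRNA fragments that a ribosome shields from RNase I, had been sequenced from 26 libraries of 3 human cell lines, HEK293T and HEK293FT (both of embryonic kidney origin) and K562 (a leukaemia line). By its title, the series asks whether removing ribosomal RNA with a nuclease distorts footprint counts. The groups were as follows. HEK293T libraries (fragments of 15 to 35 nt) were undepleted or treated with Ribo-Zero Gold, RiboCop or NEBNext, with 2 libraries each. A first K562 table held 1 undepleted and 1 NEBNext library from fragments of 20 to 34 nt and 1 of each from 20 to 60 nt. A second K562 table (20 to 34 nt) paired 2 undepleted libraries with 2 from each of 3 treatments (FastSelect, riboPools, and riboPools eluted cold), and had 1 library each of Ribo-Zero Plus alone, with oligos, with formaldehyde and with both. HEK293FT (15 to 35 nt) gave 1 undepleted library and 1 depleted with custom oligos. All cells were lysed with cycloheximide, an inhibitor of elongation that acts on the ribosome. NEBNext and Ribo-Zero Plus digest rRNA paired to DNA probes, whereas Ribo-Zero Gold, RiboCop and riboPools capture it, and FastSelect keeps it from being reverse transcribed. No label says that paired libraries came from separate cultures, so p-values measure the spread between these libraries, which may be technical.

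Library totals ran from 120019 to 421521 counts in HEK293T, from 46858 to 5795774 in K562, and were 900763 and 5747772 in HEK293FT. The cell line labels were checked against marker genes. The summed level of 10 erythroid markers was 3924 to 13002 CPM (counts scaled to the library total) in the K562 libraries, at most 7.50 CPM in HEK293T and at most 5.55 CPM in HEK293FT. The summed level of 7 markers of the HEK lines was 358 to 691 CPM in HEK293T, 284 to 294 CPM in HEK293FT and at most 4.89 CPM in K562. Both K562 libraries titled undepleted in the table of 2 fragment ranges also carry a label naming NEBNext, and were taken as undepleted by their titles.

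During elongation, eEF1A bound to GTP brings each aminoacyl-tRNA to the ribosome, and the eEF1B complex (subunits encoded by EEF1B2, EEF1D and EEF1G) exchanges the spent GDP on eEF1A for GTP. eEF2 then moves the ribosome by a codon, and its kinase, encoded by EEF2K, inhibits it by phosphorylation. At a stop codon eRF1 (ETF1) recognises the codon and works with the GTPase eRF3a (GSPT1), after which ABCE1 splits the ribosome for reuse. EEF1A1 is the eEF1A gene of most tissues, and EEF1A2 is known from muscle and neurons. Several of these mRNAs belong to the class with a 5′ terminal oligopyrimidine tract, whose translation follows growth signals through mTOR.

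EEF1A1 (ENST00000316292.13, GRCh38 chr6:73515750-73521018, minus strand) and EEF1A2 (ENST00000217182.4, chr20:63488012-63499322, minus strand) encode nearly the same protein from well separated nucleotide sequences. Their coding sequences match at 78.2% of 1389 aligned bases and at 92.6% of 462 encoded amino acids. The longest run of identical bases is 20 nt, shorter than a typical footprint, so no 28-nt window of EEF1A2 occurs in EEF1A1 or in any other gene of GENCODE release 29. Coding bases 145 to 204, which surround that longest run, are shown because they are where the paralogs are hardest to tell apart, with the 9 differing bases in capitals.
EEF1A1: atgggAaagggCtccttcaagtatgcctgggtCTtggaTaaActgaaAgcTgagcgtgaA
EEF1A2: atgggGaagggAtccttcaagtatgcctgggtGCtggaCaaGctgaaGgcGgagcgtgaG
Coding bases 946 to 1035 hold the most differences of any 90 bases, 28, again in capitals.
EEF1A1: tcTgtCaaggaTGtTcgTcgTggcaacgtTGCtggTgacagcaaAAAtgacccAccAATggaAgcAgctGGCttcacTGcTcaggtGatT
EEF1A2: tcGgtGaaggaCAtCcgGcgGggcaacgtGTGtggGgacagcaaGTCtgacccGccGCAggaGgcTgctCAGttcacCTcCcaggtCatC

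Footprints of EEF1A1 are, in contrast, shared with its own copies. Of its 1362 windows of 28 nt, 98.97% also occur in at least 1 of 44 other genes, 42 of them pseudogenes, and 91.8% occur in the pseudogene EEF1A1P5. None of these copies has a row in the deposited tables. All 1287 windows of EEF1G are shared, mostly through the readthrough gene AP002990.1, and the share is 87.7% for EEF1B2, 50.9% for ABCE1, 38.7% for ETF1, 22.7% for EEF1D and 6.92% for GSPT1, and no window of EEF2 or EEF2K is shared. How reads matching several places were counted is not given in the sources used here, so the absolute levels of EEF1A1, EEF1G and EEF1B2 are uncertain.

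The first transcribed bases, from RefSeq's GRCh38.p14 starts, are shown for the members whose start matched the pyrimidine tract pattern: a C followed by at least 3 bases that are each C or T, beginning at base 1 or 2 of the transcript, read on the transcribed strand (tract in capitals).
EEF1A1: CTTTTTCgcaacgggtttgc
EEF1B2: CCTTTTTCCTCTCTTCagcg
EEF1G: aCTTTgcggcagcgccgaga
EEF2: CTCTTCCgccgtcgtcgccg
RefSeq's table had a start for 8 of the 10 members, and 4 of these had at least 1 that matched. Over all 35116 starts in that table, 10.3% matched. That share is counted per start, whereas a member with several starts was counted once. EEF1B2 had a second start without the tract, at chr2:206159609, and its counted transcript begins near that one, at 206159605. The starts of EEF2K, ETF1, GSPT1 and ABCE1 did not match, which says only that these letters are not at the listed start.

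EEF1A1 had the highest count of all coding sequences in 25 of 26 libraries. The exception was the K562 library made with Ribo-Zero Plus and oligos, where KCNH8 came first with 2960 counts against 2900 for EEF1A1. Per kilobase of coding sequence, EEF1A1 was first in 3 libraries. Together the 10 members held 1.51 to 1.92% of all counts in HEK293T, 2.28 to 2.78% in K562 and 2.59 to 2.63% in HEK293FT.

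Levels per coding length are given first, since they allow genes to be compared. A footprint level combines the amount of an mRNA with the number of ribosomes on it, and the files used here do not separate these. Over all libraries of a line, EEF1A1 stood at a median of 6636 CPM per kb in HEK293T, 12824 in K562 and 9815 in HEK293FT. EEF1G and EEF2 came next, with medians of 1771 and 1694 CPM per kb in HEK293T and 1850 and 1865 in K562, and the ranges of these 2 genes overlapped in both lines. In HEK293FT the levels were 2610 and 2699 CPM per kb for EEF1G and 2499 and 2545 for EEF2. EEF1B2 followed, with medians of 1048, 1042 and 1422 CPM per kb in HEK293T, K562 and HEK293FT. EEF1D, ETF1, GSPT1 and ABCE1 lay together between 139 and 258 CPM per kb in median in the 3 lines, and EEF1A2 lay at 76.9, 79.2 and 219, below these 4 genes in HEK293T and K562 and among them in HEK293FT. EEF2K, the one regulatory kinase among them, was lowest, at medians of 8.90, 18.9 and 13.9 CPM per kb. In HEK293T EEF2K had 1 to 10 counts per library, so its order among those libraries cannot be read.

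**Figure D1:**
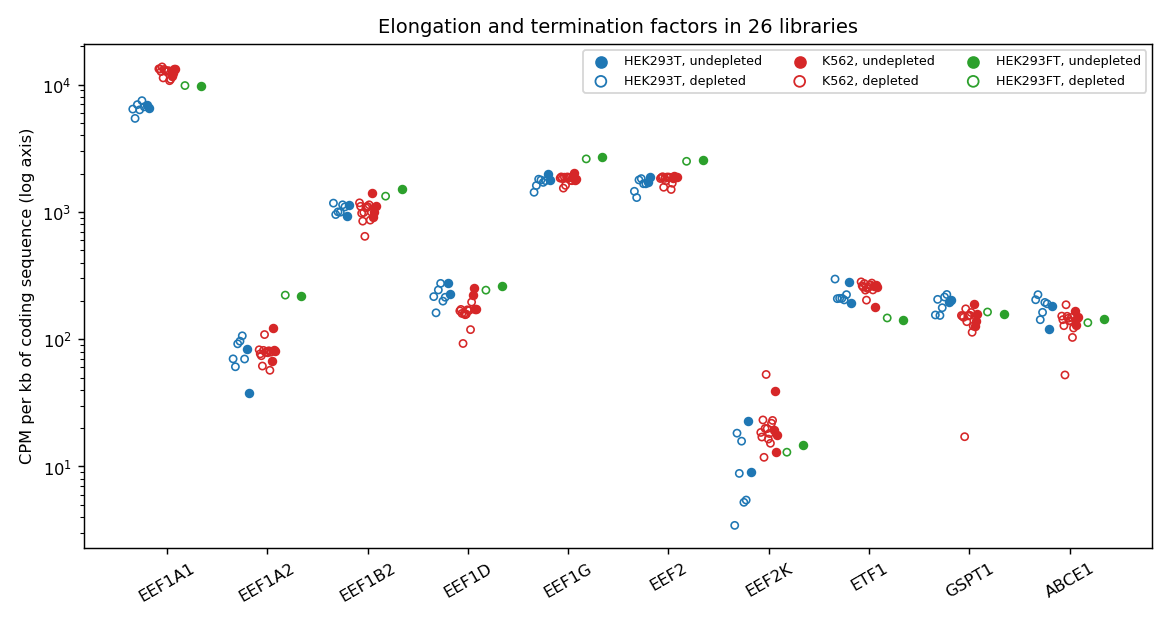
Footprint level of each member in CPM per kb of coding sequence (vertical log axis), with 1 point per library, coloured by cell line and filled where the library was undepleted. EEF1A1 lies above every other member in all 26 libraries, and the separation between lines is clearest for EEF1A1 and EEF1A2.

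EEF1A1, the carrier of aminoacyl-tRNA, differed most clearly between the lines. In undepleted HEK293T libraries it had 9632 and 9129 CPM (1156 and 1401 counts). In undepleted K562 it had 18317 and 18572 CPM in the kit table and 16342 and 17073 CPM in the table of fragment ranges, and undepleted HEK293FT had 13598 CPM. The depleted libraries stayed with their line: all 8 HEK293T libraries lay between 7544 and 10399 CPM, all 16 K562 libraries between 14926 and 19153, and the HEK293FT library with custom oligos had 13667. The ranges of the 3 lines did not overlap.

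EEF1A2 went another way. Undepleted HEK293T libraries had 117 and 52.1 CPM, on 14 and 8 counts. Undepleted K562 libraries had 115 and 113 CPM in the kit table and 94.6 and 171 CPM in the other, and HEK293FT had 302 CPM undepleted and 309 CPM with custom oligos. Over all libraries, HEK293T (52.1 to 148 CPM) and K562 (79.3 to 171 CPM) overlapped, and both HEK293FT libraries lay above them.

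Among the eEF1B subunits, EEF1G had 2616 and 2352 CPM in undepleted HEK293T, 2360 and 2376 CPM in undepleted K562 of the kit table and 3547 CPM in undepleted HEK293FT. EEF1B2 had 625 and 762 CPM in HEK293T, 683 and 748 CPM in K562 and 1026 CPM in HEK293FT. EEF1D had 542 and 443 CPM in HEK293T, 336 and 334 CPM in K562 and 508 CPM in HEK293FT. Undepleted K562 of the table of fragment ranges had 2502 and 2646 CPM of EEF1G, 951 and 619 CPM of EEF1B2 and 431 and 491 CPM of EEF1D. HEK293FT was thus the highest for EEF1G and EEF1B2, whereas for EEF1D it lay within the HEK293T pair, and the K562 values of the table of fragment ranges overlapped that pair. EEF2, the translocase, had 4441 and 4816 CPM in HEK293T, 4863 and 4808 CPM in K562 of the kit table, 4799 and 4908 CPM in the other and 6559 CPM in HEK293FT, so that HEK293FT again lay above and the other lines overlapped.

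The termination factors were lower and closer. ETF1 had 367 and 254 CPM in undepleted HEK293T, 350 and 336 CPM in K562 of the kit table, 342 and 235 CPM in the other and 184 CPM in HEK293FT, the lowest of these values. GSPT1 had 292 and 306 CPM in HEK293T, 207 and 235 CPM in K562 of the kit table, 284 and 192 CPM in the other and 239 CPM in HEK293FT. ABCE1, the recycling factor, had 217 and 326 CPM in HEK293T, 263 and 268 CPM in K562 of the kit table, 300 and 235 CPM in the other and 258 CPM in HEK293FT. The HEK293T pair for ABCE1 spanned the other 2 lines.

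The undepleted libraries of the kit table of K562, of HEK293T and of HEK293FT were then set against each other in 1 edgeR quasi-likelihood fit with TMM scaling over 9644 genes. A member was called at a Benjamini-Hochberg adjusted p under 0.05. Cell line, experiment and, for K562, fragment range cannot be told apart here, and the single HEK293FT library was assumed to vary like the others. For EEF1A1 in the comparisons with K562 the fit gave an adjusted p below what can be written and a standard error under that of counting alone (0.023 against 0.029 on the log2 scale for K562 against HEK293T), so the DESeq2 value is given for it.

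Against HEK293T, HEK293FT had 5 of 10 members called, all higher, where 4.05% of all tested genes were called. EEF1A2 rose most (log2 fold change 2.05 ± 0.27 (SE), adjusted p 6.73e-12 by edgeR), on 14 and 8 counts in the HEK293T pair. EEF1B2 rose by 0.69 ± 0.12, EEF1A1 by 0.68 ± 0.03, EEF1G by 0.67 ± 0.07 and EEF2 by 0.64 ± 0.05. These 4 genes are the ones with a start that matched the pyrimidine tract, and their changes ran from 0.64 to 0.69. For EEF1B2 the matching start was not the one nearest the start of its counted transcript. The 4 members with a listed start and no match were not called: EEF2K 0.11 ± 0.56, ABCE1 0.03 ± 0.20, GSPT1 −0.19 ± 0.20 and ETF1 −0.58 ± 0.21 (edgeR adjusted p 0.0927). The tract genes also had the highest counts of the members, and depth and tract cannot be told apart here. EEF1A2, which rose most, had no listed start. EEF1D had none either, and its change was 0.21 with no call. In both comparisons with K562 below, the changes of the tract genes were further apart. Against HEK293FT, EEF1A1 was higher in K562 while EEF1B2, EEF1G and EEF2 were lower. Whether the tract has a part in any of this was not tested. The median over the 10 members was 0.42 against 0.01 over all tested genes. The 5 calls stood in every alternative run. All of these runs kept the undepleted HEK293FT library, so they could not show dependence on it. Scaling by total count moved the median of all genes to −0.09, lowered the 4 tract genes to between 0.49 and 0.54, added ETF1 as lower (−0.72, adjusted p 0.017), and turned the split of all calls from 265 higher and 126 lower to 179 and 240.

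Against HEK293T, K562 had 6 of 10 members called, all higher, with 35.4% of tested genes called. EEF1A1 rose by 1.23 (DESeq2 1.22 ± 0.04 (SE), adjusted p 3.17e-236), a 2.35-fold difference. The other calls were small or weakly counted: EEF1A2 0.76 ± 0.31 (edgeR adjusted p 0.0383), ETF1 0.43 ± 0.17 (0.0303), EEF2 0.31 ± 0.05, EEF1B2 0.28 ± 0.11 (0.0427) and EEF1G 0.19 ± 0.06 (0.0102). EEF1D was at −0.28 ± 0.14 (edgeR adjusted p 0.119) and GSPT1 at −0.19 ± 0.18. The median over the members was 0.27 against 0.02 over all tested genes. Only EEF1A1 kept its call in all alternatives. Scaling by total count shifted the median of all genes to −0.24 and turned the split of all calls from 1781 higher and 1629 lower to 1219 and 2134. Under it EEF1A1 stood at 0.97, EEF2, EEF1B2 and EEF1G at 0.05, 0.02 and −0.07 with no call, and EEF1D (−0.54) and GSPT1 (−0.45) were called lower. EEF1A2 depended on the HEK293T pair: without the second undepleted HEK293T library, the one at 52.1 CPM, its change was 0.23. Without that library ETF1 stood at 0.16 and EEF1G at 0.12, and without the first undepleted HEK293T library EEF1B2 stood at 0.15, all with no call.

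Against HEK293FT, K562 had 7 of 10 members called, with 52.1% of tested genes called. EEF1A1 rose by 0.55 (DESeq2 0.57 ± 0.03 (SE), adjusted p 1.52e-74) and ETF1 by 1.01 ± 0.12 (edgeR, as for the genes that follow). EEF1A2 fell by 1.29 ± 0.13, EEF1D by 0.49 ± 0.09, EEF1G by 0.47 ± 0.04, EEF1B2 by 0.41 ± 0.07 and EEF2 by 0.33 ± 0.03. EEF2K, GSPT1 and ABCE1 were not called. The calls and their directions held in all alternatives run, which again kept the undepleted HEK293FT library. The 3 comparisons share libraries, so each gives its own values and none is support for another.

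**Figure D2:**
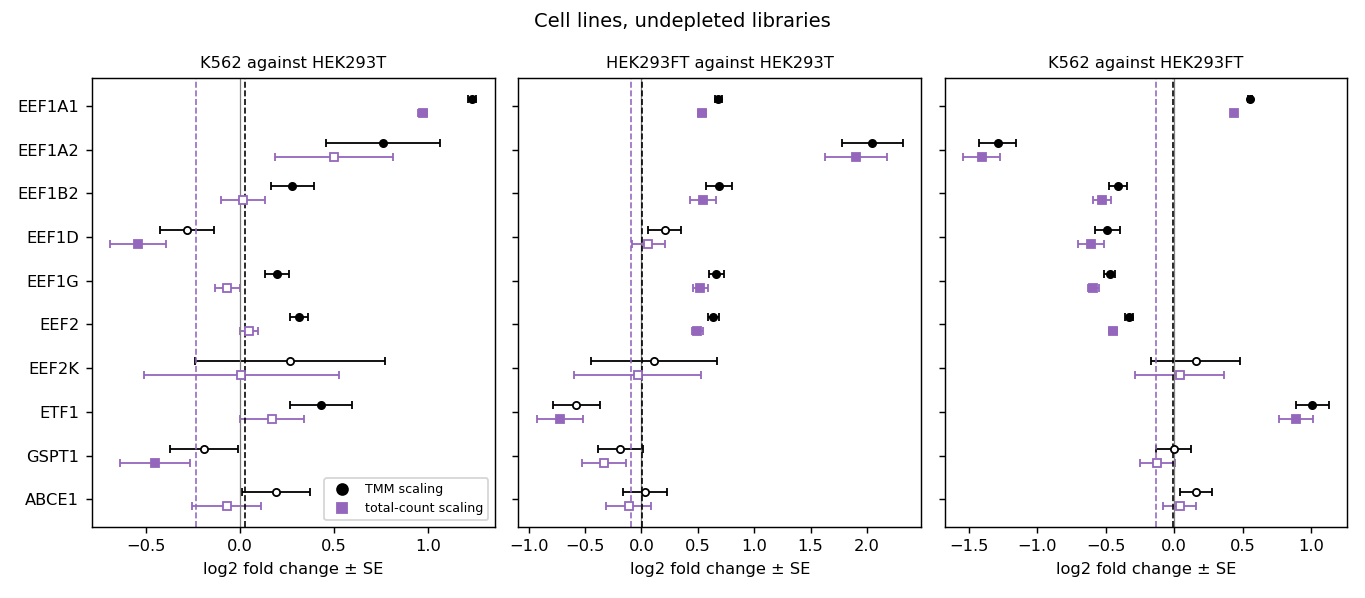
Log2 fold changes (horizontal axis, ± SE) of the 10 members between undepleted libraries of the 3 lines under TMM scaling (black circles) and total-count scaling (purple squares), filled where the adjusted p was under 0.05. Dashed lines mark the median of all tested genes under each scaling. EEF1A1 keeps its direction under both, whereas EEF1B2, EEF1G and EEF2 lie near 0 between K562 and HEK293T once totals are used.

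Ratios between members within a library do not depend on scaling. Per coding length, EEF1A1 exceeded EEF1G by a median of 3.74 in HEK293T (range 3.37 to 4.50, n = 8 libraries), 3.70 in HEK293FT (3.63 to 3.77, n = 2) and 6.92 in K562 (6.03 to 8.96, n = 16). It exceeded EEF2 by 4.03 (3.47 to 4.50), 3.89 (3.85 to 3.94) and 6.89 (6.16 to 8.83) in the same order, and EEF1B2 by 6.25 (5.48 to 7.52), 6.93 (6.47 to 7.40) and 11.98 (8.38 to 20.5). For each of these 3 partners the K562 libraries lay above all HEK293T and HEK293FT libraries, across 2 K562 tables and every kit, and the HEK293FT values lay within the HEK293T range. Cell line, experiment and, for K562, fragment range cannot be told apart in these ratios either. How reads shared with other genes were counted is not given, and no label states separate cultures.

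EEF1A1 exceeded its paralog EEF1A2 by a median of 86.1 in HEK293T (65.8 to 176), 162 in K562 (100 to 224) and 44.7 in HEK293FT (44.3 and 45.1). HEK293FT lay below the other lines, while HEK293T and K562 overlapped through the HEK293T library with 8 counts of EEF1A2.

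Within eEF1B, EEF1B2 stood at a median of 0.61 of EEF1G per coding length in HEK293T (0.46 to 0.82), 0.57 in K562 (0.40 to 0.74) and 0.54 in HEK293FT (0.51 and 0.56), with all ranges overlapping. EEF1D stood far lower, at 0.13 of EEF1G in HEK293T (0.10 to 0.15), 0.091 in K562 (0.060 to 0.13) and 0.095 in HEK293FT (0.093 and 0.097). The deposited EEF1D transcript is a long form of 647 codons. GENCODE release 29 lists more complete EEF1D transcripts of 281 codons (4) than of any other length, and with that length the medians were 0.30, 0.21 and 0.22. Footprints of a shorter form would fall in part of the counted sequence only, and the tables hold no positions within it.

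In termination, GSPT1 stood at a median of 0.92 of ETF1 per coding length in HEK293T (0.52 to 1.06), 0.60 in 15 K562 libraries (0.41 to 0.73) and 1.12 in HEK293FT (1.11 and 1.13). The K562 library left out had 3 GSPT1 counts. ABCE1 stood at 0.81 of ETF1 in HEK293T (0.43 to 1.08), 0.55 in K562 (0.19 to 0.77) and 0.97 in HEK293FT (0.92 and 1.02). HEK293FT lay above K562 in both ratios, and HEK293T overlapped K562. The deposited GSPT1 transcript has 499 codons, and GENCODE release 29 also lists complete forms of 636 and 637 codons. The related gene GSPT2, which shares 84 windows of 28 nt with GSPT1, had 12.8 to 31.0 CPM in HEK293T (2 to 13 counts), 18.9 and 24.0 CPM in HEK293FT and a median of 21.1 CPM in K562 (0 to 157). The highest K562 value, 157 CPM on 26 counts, was in the Ribo-Zero Plus library with oligos and formaldehyde, where GSPT1 had 206 CPM.

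**Figure D3:**
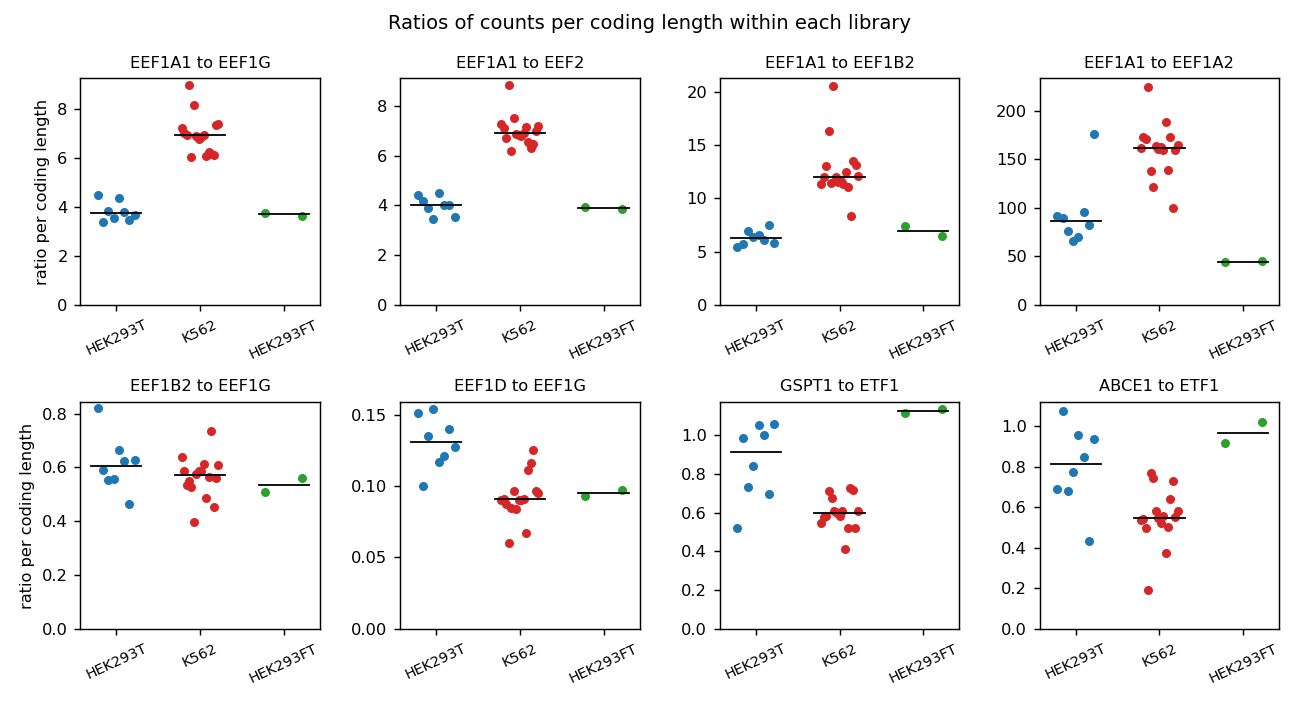
Ratio of counts per coding length between 2 members within each library (vertical axis from 0), with 1 point per library grouped by cell line and the median as a line; libraries with 3 or fewer counts of either gene are left out. The ratios of EEF1A1 to EEF1G, EEF2 and EEF1B2 in K562 lie above all libraries of both HEK lines.

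By a likeness rule over log2(CPM + 1) in the 26 libraries, among 2698 genes averaging 100 counts or more, the genes most like EEF1A1 were TMSB4X (Pearson r 0.96), RPS23 (0.96) and RPL13A (0.96). The genes most like EEF1A2 were EEF1G (0.72), EEF2 (0.69) and RBM3 (0.69). EEF1A1 and EEF1A2 were related with r 0.12. The libraries fall into 3 lines, share an experiment within a table and differ in depth, so these values describe the levels and are no test.

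The kits were compared with undepleted libraries of the same table. With NEBNext in HEK293T, 1 of the 9 members tested was called, where 3.24% of 4410 tested genes were called (EEF2K had too few counts). EEF2 fell from 4441 and 4816 CPM to 3743 and 3342 CPM, by 0.38 ± 0.07 on the log2 scale (SE; edgeR adjusted p 3.22e-05). EEF1A1 went from 9632 and 9129 CPM to 8926 and 7544 (−0.18 ± 0.06, edgeR adjusted p 0.0705) and EEF1G from 2616 and 2352 CPM to 1875 and 2119 (−0.28 ± 0.09, adjusted p 0.0645). EEF1D had 420 and 313 CPM (−0.43 ± 0.19) and ABCE1 368 and 403 CPM (0.50 ± 0.22), and neither was called. The NEBNext pair lay below the undepleted pair for EEF2, EEF1A1, EEF1G and EEF1D and above it for ABCE1. The share of all tested genes whose pairs lay apart in this way is not given here, so this order is no result about the members. The call depends on few libraries: without the second NEBNext library EEF2 stood at −0.31 with no call, and with total-count scaling EEF1A1 (adjusted p 0.0424) and EEF1G (0.0456) were called too. With the replicate number as a block, EEF1A1 (−0.18, edgeR adjusted p 0.00216) and EEF1G (−0.28, adjusted p 0.0295) were also called. Without the first NEBNext library EEF1A1 stood at −0.29 (edgeR adjusted p 0.00272).

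In K562, NEBNext gave no member a call (0 of 9; 2.72% of 3715 tested genes were called by edgeR). EEF2 had 3869 and 4331 CPM with NEBNext in the 20 to 34 and 20 to 60 nt libraries against 4799 and 4908 CPM undepleted (−0.20 ± 0.13). EEF1A1 had 14926 and 15302 CPM against 16342 and 17073 (−0.09 ± 0.12), and EEF1D 231 and 381 CPM against 431 and 491 (−0.66 ± 0.22, edgeR adjusted p 0.0761). For EEF1A1, EEF2, EEF1G, EEF1D, GSPT1 and ABCE1 both NEBNext libraries lay below both undepleted ones. For GSPT1 the gap in the 20 to 60 nt libraries was only 190 against 192 CPM, the latter on 9 counts. With total-count scaling the median over all tested genes was −0.06. The share of all genes that lay apart in this way is not given here, so this order is no result about the members. At an unadjusted p under 0.05 the fit had 2 members, and DESeq2 called 0. Without the NEBNext library of 20 to 60 nt, 3 members were called lower: EEF1D (−0.85), EEF1B2 (−0.50) and EEF2 (−0.22). A fit of 3 libraries has no term for fragment range, and its spread comes from the undepleted pair alone, whose libraries differ in that range. The difference in the NEBNext effect between K562 and HEK293T was called for 0 of 9 members (0.296% of 4736 tested genes by edgeR, 1 member at an unadjusted p under 0.05, 0 by DESeq2). For EEF2 that difference was 0.20 ± 0.15 and for ABCE1 −0.96 ± 0.34 (edgeR adjusted p 0.327).

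The methods that capture or block rRNA gave no member a call. Ribo-Zero Gold and RiboCop in HEK293T called 0 of 9 each, where 0.068% and 0.0% of 4410 genes were called, with 0 and 1 members at an unadjusted p under 0.05. FastSelect, riboPools and riboPools with cold elution in K562 called 0 of 10 each, where 0.0205%, 0.082% and 0.225% of 9761 genes were called, with 1, 2 and 1 members at an unadjusted p under 0.05. DESeq2 called 0 members in all 5. The K562 data were deep enough to bound the changes of the abundant members closely. EEF1A1 had 18497 and 18407 CPM with FastSelect (−0.003 ± 0.017 (SE)), 17962 and 17725 CPM with riboPools (−0.05 ± 0.02) and 17679 and 17899 CPM with cold elution (−0.06 ± 0.02, edgeR adjusted p 0.192). Both riboPools groups lay below the undepleted pair for EEF1A1. EEF1G lay above it in all 3 groups, with changes of 0.05, 0.06 and 0.04, and EEF2 changed by −0.03, −0.003 and −0.01. The 3 comparisons share the undepleted pair, and the share of all genes that lay apart from it is not given here. In HEK293T the low counts left EEF1A2 open to larger changes (0.58 ± 0.33 with Ribo-Zero Gold and 0.71 ± 0.35 with RiboCop). EEF2K was bounded less closely in K562, at 0.21 ± 0.25 with FastSelect and 0.23 ± 0.25 with riboPools by DESeq2.

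**Figure D4:**
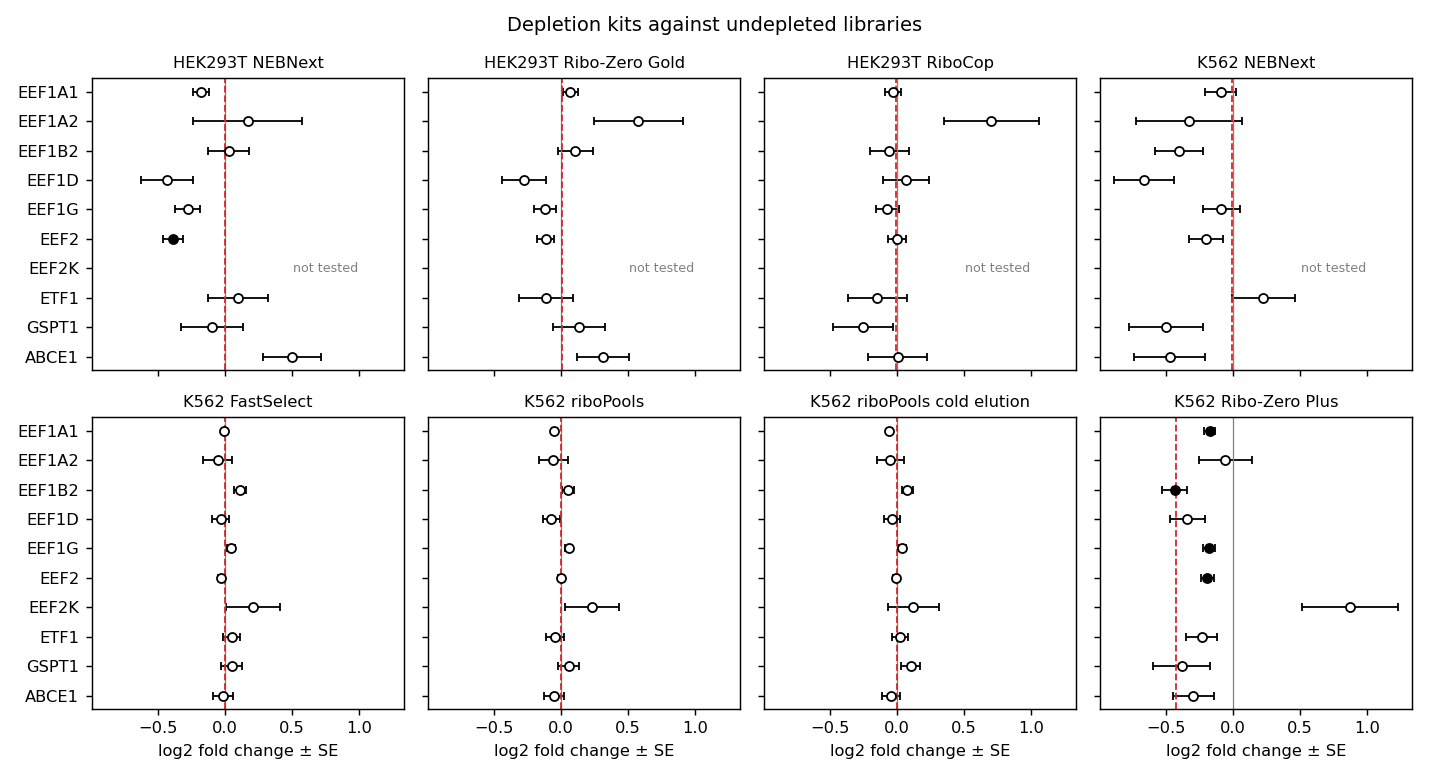
Log2 fold change of each member against undepleted libraries for 8 kit comparisons (horizontal axis, ± SE), filled where the edgeR adjusted p was under 0.05; the red dashed line is the median of all tested genes. Calls appear for EEF2 with NEBNext in HEK293T and for 4 members with Ribo-Zero Plus, where the median of all genes is itself at −0.43.

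Ribo-Zero Plus in K562 had 4 of 10 members called lower in the mean of its 4 libraries, where 14.9% of 9628 tested genes were called. The calls were EEF1B2 (−0.44 ± 0.09 (SE), edgeR adjusted p 0.0108), EEF2 (−0.19 ± 0.05, 0.0249), EEF1G (−0.18 ± 0.05, 0.0249) and EEF1A1 (−0.18 ± 0.04, 0.0149). All 4 come from a fit whose median over all genes was −0.43, and EEF1A1, EEF1G and EEF2 lay above that median. Among detected genes with at least 100 undepleted counts, the median log2 ratio was nearer 0. It was −0.03 with the kit alone, −0.07 with oligos, −0.09 with formaldehyde and −0.11 with both. EEF1A1 lay below this median with the kit alone (−0.07) and with oligos (−0.23), and above it in the formaldehyde libraries. EEF1G lay below it in both formaldehyde libraries only, and EEF2 with formaldehyde alone only. EEF1B2 lay below it in all 4 libraries: −0.11 with the kit alone, −0.09 with oligos, −0.31 with formaldehyde and −0.71 with both. DESeq2 called EEF1B2 alone, total-count scaling called EEF1A1 and EEF1B2, and a fit of these 4 and the undepleted pair only called none. By DESeq2 and by total counts, EEF1A1 stood at −0.04 and −0.06, EEF1G at −0.05 and −0.07, and EEF2 at −0.06 and −0.08. EEF1B2 stood at −0.30 and −0.33 in the same order.

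Taken library by library against the summed counts of the undepleted pair, the kit alone (1840190 counts) left the abundant members in place: the CPM ratio was 0.95 (95% counting interval 0.94 to 0.97) for EEF1A1, 1.02 for EEF1G, 1.01 for EEF2 and 0.93 for EEF1B2. The library with formaldehyde and no oligos (116742 counts) departed most. It had 3 counts of GSPT1, 25.7 CPM against 221 CPM undepleted (ratio 0.12, interval 0.02 to 0.34), 11 counts of ABCE1 (ratio 0.35, interval 0.18 to 0.64) and 21 counts of EEF1D (ratio 0.54, interval 0.33 to 0.83), while EEF1A1 stood at 1.04 and ETF1 at 1.05. In the library with oligos and formaldehyde, GSPT1 was at 0.94 and ABCE1 at 1.03, while EEF1B2 was at 0.61 (interval 0.48 to 0.77) and EEF2K at 3.46 on 19 counts (interval 1.97 to 5.81). The library with oligos alone had EEF1A1 at 0.85 (interval 0.82 to 0.88). EEF1B2, EEF1D, EEF1G, EEF2 and GSPT1 were below the undepleted pair in both formaldehyde libraries. EEF1B2 had 574 and 436 CPM against a mean of 715, and EEF1D 180 and 303 CPM against 335. EEF1G had 2022 and 2125 CPM against 2368, and EEF2 4026 and 4529 CPM against 4835. GSPT1 had 25.7 and 206 CPM against 221. The share of all genes that were below the pair in both is not given here. The summed erythroid markers were also low in these 2 libraries, at 6193 and 3924 CPM against at least 9355 CPM in every other K562 library, and their part in these ratios was not tested. Of 3834 genes with at least 100 counts in the undepleted pair, 8.89% were at 0 in the formaldehyde library, 4.12% with oligos, 5.29% with both and 0 of them with the kit alone. These are single libraries with no replicate, and intervals cover counting error only.

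**Figure D5:**
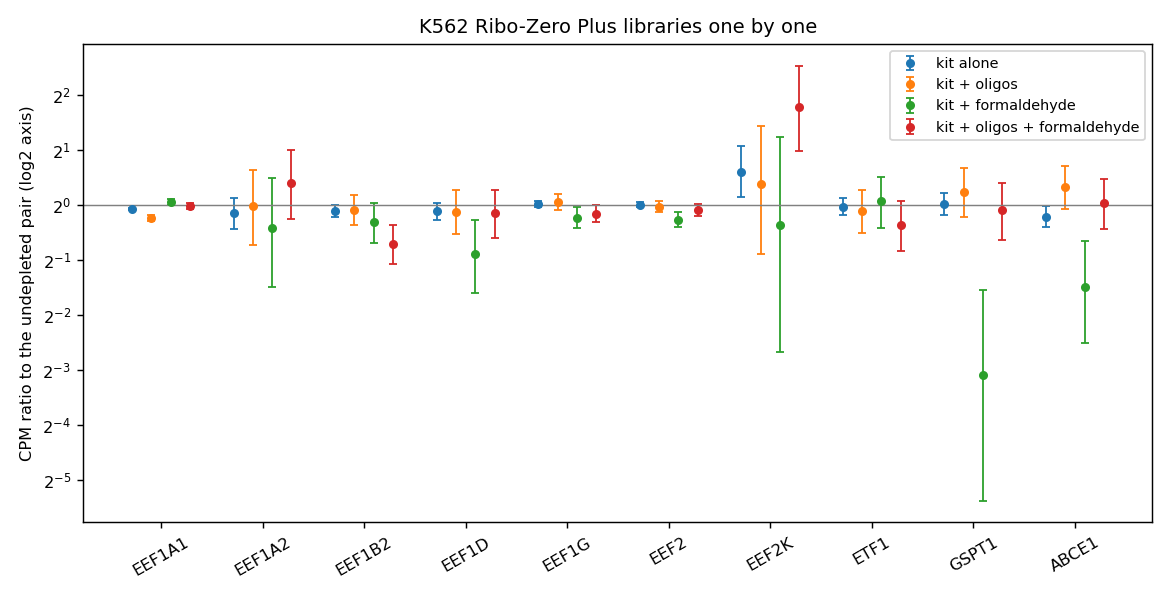
Ratio of each member's CPM in the 4 K562 Ribo-Zero Plus libraries to the undepleted pair (vertical log2 axis), with 95% intervals for counting error. GSPT1 and ABCE1 fall well below 1 in the library with formaldehyde and no oligos, whereas EEF1A1 stays between 0.85 and 1.04 in all 4.

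In HEK293FT, where 1 library each allows no test, the custom oligos left the members close to undepleted. The CPM ratios ran from 0.88 to 1.05, with a median log2 ratio of −0.04 over the 10 members and 0.002 over 5225 genes averaging 100 counts or more. EEF1A1 was at 1.01 (interval 0.99 to 1.02) and EEF2 at 0.98 (0.96 to 1.01). EEF1B2, at 902 CPM against 1026 CPM, was the one member whose counting interval left out 1 (ratio 0.88, interval 0.82 to 0.94).

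Other genes of these pathways were followed as 4 lists, 35 genes in all: further cytosolic elongation genes (eIF5A and its hypusine enzymes, the eEF1A methyltransferases, the selenocysteine factors and others), the diphthamide enzymes that modify eEF2, further termination and rescue genes, and the mitochondrial factors. In the kit comparisons other than Ribo-Zero Plus, edgeR called 0 of them (15 to 35 tested). With Ribo-Zero Plus, 2 of 34 were called higher and 5 lower, where 14.9% of all tested genes were called, 143 higher and 1288 lower. PELO, which rescues stalled ribosomes, had 41.3, 85.7, 103 and 109 CPM in the 4 libraries against 23.8 and 25.2 undepleted (1.50 ± 0.31 (SE), edgeR adjusted p 0.00966). MRRF, the mitochondrial recycling factor, had 56.5 CPM with the kit alone and was at 0 in the other 3 libraries, against 45.8 and 49.4 CPM undepleted. DHPS, the first hypusine enzyme, was at 0 in both formaldehyde libraries and at 61.4 CPM with the kit alone and 119 CPM with oligos, against 81.9 and 101 CPM. A count of 0 allows up to 3 counts, which is 25.7 CPM with formaldehyde, 16.2 with oligos and 18.2 with both.

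Between lines, K562 against HEK293T had 4 of 33 list genes called higher and 3 lower, with 35.4% of all tested genes called (median 0.07 against 0.02 over all genes). HEK293FT against HEK293T had 0 higher and 1 lower, with 4.05% of all genes called (median 0.14 against 0.01). K562 against HEK293FT had 6 higher and 8 lower, with 52.1% of all genes called (median 0.02 against −0.01). VARS, the valyl-tRNA synthetase that binds the eEF1 complex, was higher in K562 than in HEK293T (1.01 ± 0.15 (SE)) and HEK293FT (1.61 ± 0.11). DHPS was higher in K562 than in HEK293T (1.19 ± 0.37, edgeR adjusted p 0.00587), where the undepleted HEK293T pair had 3 and 10 counts (24.996 and 65.163 CPM). The HEK293T libraries with a kit had 70.4 to 92.9 CPM of DHPS, except 1 NEBNext library at 7.50 CPM (1 count), against 81.9 and 101 CPM in undepleted K562. EIF5A, the protein that DHPS modifies, was lower in K562 than in HEK293T (−0.39 ± 0.11) and HEK293FT (−0.62 ± 0.07). DPH1, which starts diphthamide synthesis on eEF2, was lower in K562 than in HEK293T (−0.82 ± 0.34, edgeR adjusted p 0.0486) and HEK293FT (−1.53 ± 0.20). EEF1E1, an eEF1-related subunit of the tRNA synthetase complex, was lower in HEK293FT than in HEK293T (−0.97 ± 0.28, adjusted p 0.0203) and than in K562.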

How the data were processed

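Per the file headers, the authors deposited counts of reads, in whole numbers, for the coding sequence of 1 transcript a row, and RPM values of the same rows that equal the count over the library total, so the counts were used and levels are given as CPM. CASAVA 1.8, STAR and GRCh38 are named in the submitters' processing notes. The rule for reads matching several places or duplicates is not given in the sources used here, so intervals cover counting error only. Per the labels' protocols, monosomes were collected by ultracentrifugation and fragments selected on a gel.

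The test was edgeR 4.0.16 (R 4.3.3; TMM, filterByExpr, quasi-likelihood test) over all genes, all libraries of a table in 1 fit, with Benjamini-Hochberg adjustment at 0.05. The 3 K562 capture and blocking kits were fitted without Ribo-Zero Plus libraries, fragment range entered the first K562 table additively, and oligos and formaldehyde entered the Ribo-Zero Plus fit additively. Alternatives were DESeq2 1.42.0, total-count scaling, no filter, other library sets, a replicate block and leaving out each compared library. The undepleted HEK293FT library was never left out. Each standard error is the size of the log2 fold change divided by the square root of F. Code was tested on simulated data. Lengths and 28-nt windows come from GENCODE release 29, where 97.2% of transcripts matched with version and 99.6% had a coding sequence. Of the pathway lists, up to 2 higher and 2 lower genes per comparison with a mean of at least 50 counts were named. The 2 RiboCop libraries agree within sampling noise (chi-square p 0.103 over 4378 genes). Its libraries have different barcodes and totals, so both were kept. Members and lists were chosen with earlier results of these data known.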

Additional observations from a re-analysis of the deposited data

How the results depend on the processing

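Of 1029 alternative values of single members, 960 kept their side of the threshold (71 of these, uncalled in both fits, changed sign), 41 lost a call, 27 gained one and 1 reversed: EEF1G between K562 and HEK293T, −0.069 with total-count scaling.

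Members called moved as follows. For NEBNext in HEK293T (1 called), total-count scaling and the replicate block each gave 3, and leaving out a library 0 to 2. For NEBNext in K562 (0) leaving out a library gave 0 to 3, in fits with no term for fragment range whose spread comes from 1 remaining pair. For cold elution (0), only the libraries of both groups gave 1, EEF1A1 (−0.06). That call rests on a very small estimated spread, with a standard error of 0.0025 against 0.022 by DESeq2. For Ribo-Zero Plus (4), DESeq2 gave 1, total-count scaling 2, only the libraries of both groups 0, and leaving out a library 0 to 7. For K562 against HEK293T (6), DESeq2 gave 2, total-count scaling 3, adding the undepleted libraries of the table of fragment ranges 3, and leaving out a library 2 to 5. With all libraries not depleted by nuclease, K562 against HEK293FT went from 7 to 9 (EEF2K and ABCE1 added, higher) and HEK293FT against HEK293T from 5 to 7 (ETF1 lower and EEF1D higher added). The cause was not tested.

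Same-numbered libraries deviated together with r from 0.06 to 0.14 in HEK293T and from −0.05 to 0.02 in K562, with 2 numbers per group, so numbers were not taken as pairs. The replicate block changed 2 of 57 member calls, EEF1A1 (−0.18) and EEF1G (−0.28) with NEBNext in HEK293T. NEBNext in K562 was fitted with fragment range as a term, which pairs its 4 libraries. For the lines, Ribo-Zero Plus and HEK293FT, no paired analysis was possible because their groups come from different experiments or hold single libraries.

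Counts of all genes called moved by more than 1.5 times in places: NEBNext in HEK293T from 143 to 58 (DESeq2), NEBNext in K562 from 101 to 16 (DESeq2) and 60 (total counts), and 0 to 279 without 1 library, Ribo-Zero Plus from 1431 to 0 (only both groups) and 160 to 3575 without 1 library, K562 against HEK293T from 3410 to 7222 (all libraries not depleted by nuclease), HEK293FT against HEK293T from 391 to 237 (DESeq2) and 2369 (all such libraries), K562 against HEK293FT from 5029 to 3000 (DESeq2), 3348 (adding undepleted libraries) and 8492 (all such libraries). TMM factors moved the HEK293FT median log2 ratio from −0.04 to −0.03. The shorter EEF1D length was chosen after seeing the data. Depth limits EEF2K and EEF1A2 in HEK293T and all members in the formaldehyde library.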
